A study of Mus musculus with 30 samples.

Results

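CHD remodellers are enzymes that use ATP to slide, space or evict nucleosomes, and the mouse CHD genes Chd1, Chd2, Chd3, Chd4, Chd6, Chd7, Chd8, Chd9 and Chd1l were followed here together with Atrx, which encodes a remodeller of a related ATPase family. The genes were chosen by symbol, and all 10 were found among the 55291 genes of the washout count table and among the 21859 genes of each time-course table. All 10 passed the filter on low counts, as did 15110 genes in all. No measured value entered that choice, although earlier results of these data were known when it was made.

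The assay was TT-seq, in which a 5 min pulse of 4-thiouridine marks newly made transcripts, and the cells were feeder-free E14 mouse embryonic stem cells kept in serum with leukemia inhibitory factor, the GSK inhibitor CHIR99021 and a MEK inhibitor labelled PD0325091. The auxin receptor osTIR1 was integrated in the genome, and in SPT16-AID lines Supt16, which encodes the large subunit of the histone chaperone FACT, also carried a C-terminal mini-AID degron and triple V5 tag. The auxin 3-indole-acetic acid (IAA, 500 nM) triggers loss of the tagged protein, and ethanol (EtOH, 0.1% per the labels) was the vehicle. A time course of 22 libraries had 11 pairs: untagged cells before treatment (0 h) or with 3, 6 or 12 h of IAA, and SPT16-AID cells (Clone1 and Clone2) before treatment or with 3, 6 or 12 h of either EtOH or IAA. A washout experiment had 8 libraries. In the washout, SPT16-AID cells had 12 h of IAA or EtOH and then 24 h of fresh medium, with 2 libraries for each treatment in each of 2 independently targeted lines, 10E and 11D. Groups follow the titles, because the tag or treatment field of many time-course libraries says otherwise, ethanol text also stands on IAA washout libraries, and the time-course protocols give 24 h and a formaldehyde step. Neither the contrast nor the direction of the time-course tables is given in the sources used here, so their changes are called positive or negative as signed.

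CHD proteins share paired chromodomains, which read histone tails, ahead of a SNF2-type ATPase. Chd1 and Chd2 travel with transcribing RNA polymerase II, where FACT also takes nucleosomes apart and puts them back. Chd3, Chd4 and Chd5 are alternative ATPases of the NuRD complex, which joins remodelling to histone deacetylation, and NuRD tunes lineage genes in embryonic stem cells. Chd6 to Chd9 form a subfamily that includes Chd7, the gene of CHARGE syndrome, and Chd8, which is linked to autism and to repression of β-catenin targets. Chd1l, also called ALC1, lacks chromodomains and is switched on by poly(ADP-ribose) at DNA breaks. Atrx works with the chaperone Daxx to place the histone variant H3.3 in heterochromatin and at telomeres.

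The start regions of genes that moved in the washout or at 12 h are shown as far as they were found. RefSeq promoter windows matched 6 of the 10 genes. None was found for Chd1, called higher after washout, or for Chd2, called negative at 12 h, so neither set is complete. Given here are the windows of Chd4 and Chd8, which were higher after washout, and of Atrx, Chd1l and Chd6, which were negative at 12 h. Each is the 250 bases before the start in build GRCm38.p6. Capitals mark the GC box GGGCGG and the CCAAT box, on either strand.
Chd4 (chr6:125095731-125095980, plus strand): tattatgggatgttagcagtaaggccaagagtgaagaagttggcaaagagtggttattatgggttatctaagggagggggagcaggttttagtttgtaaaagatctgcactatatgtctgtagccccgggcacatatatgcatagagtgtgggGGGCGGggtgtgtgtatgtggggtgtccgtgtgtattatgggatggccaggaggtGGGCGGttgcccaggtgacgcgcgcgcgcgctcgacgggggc
Chd8 (chr14:52257761-52258010, minus strand): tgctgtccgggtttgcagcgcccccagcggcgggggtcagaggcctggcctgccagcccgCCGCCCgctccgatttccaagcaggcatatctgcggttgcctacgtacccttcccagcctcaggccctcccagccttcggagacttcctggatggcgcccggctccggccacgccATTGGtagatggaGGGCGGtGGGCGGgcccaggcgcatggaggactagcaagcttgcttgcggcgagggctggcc
Atrx (chrX:105929373-105929622, minus strand): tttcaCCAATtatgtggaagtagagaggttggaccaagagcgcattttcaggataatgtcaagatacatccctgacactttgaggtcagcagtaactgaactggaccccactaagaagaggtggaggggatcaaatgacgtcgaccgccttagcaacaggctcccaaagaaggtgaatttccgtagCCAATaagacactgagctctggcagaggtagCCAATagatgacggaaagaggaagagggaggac
Chd1l (chr3:97610191-97610440, minus strand): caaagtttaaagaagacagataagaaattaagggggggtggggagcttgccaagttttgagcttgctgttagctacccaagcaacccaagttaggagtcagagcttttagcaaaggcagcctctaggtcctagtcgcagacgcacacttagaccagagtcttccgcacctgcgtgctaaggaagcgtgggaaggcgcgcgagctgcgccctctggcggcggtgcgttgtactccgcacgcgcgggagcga
Chd6 (chr2:161109087-161109336, minus strand): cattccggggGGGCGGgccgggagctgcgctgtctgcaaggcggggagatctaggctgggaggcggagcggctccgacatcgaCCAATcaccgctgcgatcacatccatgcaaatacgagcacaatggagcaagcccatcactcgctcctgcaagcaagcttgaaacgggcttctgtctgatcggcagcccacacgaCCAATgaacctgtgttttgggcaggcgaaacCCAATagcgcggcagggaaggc
The window of Chd4 held 2 GC boxes and no CCAAT box, and that of Chd8 held 3 GC boxes and 1 CCAAT box. The window of Atrx held 3 CCAAT boxes and no GC box, that of Chd6 held 3 CCAAT boxes and 1 GC box, and that of Chd1l held neither. Among 32851 windows of this length 32.7% held a GC box and 33.8% a CCAAT box. The windows of Chd8 and Chd6 were 70.0% and 61.6% G or C with 20 and 19 CpG pairs, that of Chd1l 56.4% with 17, that of Chd4 54.0% with 12 and that of Atrx 48.4% with 6, against medians of 52.4% and 6 over all windows. Searches on both strands for the ETS core CCGGAAG (held by 6.91% of windows), the NRF1 core GCATGCG (by 3.02%), the TATA box TATAAA (by 12.4%), the YY1 core ATGGCGG (by 2.21%) and the E-box CACGTG (by 6.02%) found no match in these 5, and no motif match overlapped that of another motif. These letters describe the windows only. A second RefSeq start of Chd4 lies further into the gene and its window held 3 GC boxes and 1 CCAAT box.

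Per length, Chd2 and Chd4 were the most transcribed of these genes in the EtOH washout libraries, and Chd3 was the least. Reads over whole genes, introns included, were scaled with TMM factors to CPM, a count relative to library size, and divided by gene length in kb. In EtOH, Chd2 stood at 3.35 ± 0.57 CPM per kb and Chd4 at 2.56 ± 0.20 (SD, n = 4 libraries for this and the next values). Next came Chd8 (1.64 ± 0.19), Chd6 (1.45 ± 0.19), Chd1 (1.20 ± 0.17), Atrx (1.08 ± 0.22), Chd1l (0.92 ± 0.20), Chd9 (0.90 ± 0.42) and Chd7 (0.82 ± 0.13). Chd3 lay far below at 0.113 ± 0.051 CPM per kb, whereas its NuRD counterpart Chd4 was above all 7 of the genes just listed. In this order the library ranges of neighbours overlapped except between Chd4 and Chd8 and between Chd7 and Chd3. In the IAA libraries Chd4 led with 5.76 ± 1.84 CPM per kb, its range clear of that of Chd2 (3.29 ± 0.59). Chd8 (2.70 ± 0.54) and Chd1 (2.06 ± 0.37) followed, and Chd3 was again last (0.135 ± 0.032).

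**Figure D1:**
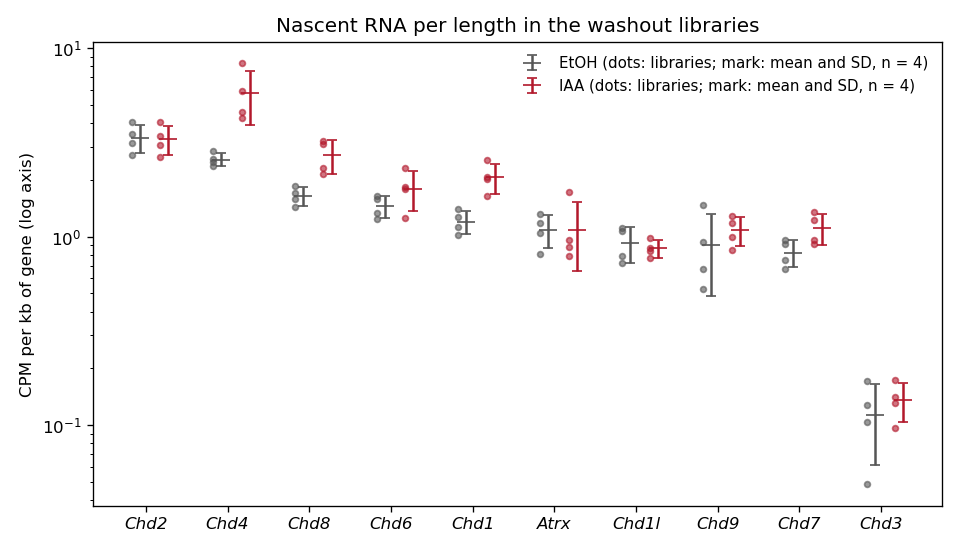
Nascent RNA of each gene per kb of gene (CPM per kb, log axis) in the 4 EtOH and 4 IAA washout libraries, with dots for libraries and marks for mean and SD. Chd2 and Chd4 lead in EtOH at 3.35 and 2.56, Chd3 is lowest at 0.113, and in IAA Chd4 leads at 5.76.

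The 10 genes differ widely in architecture. Chd9 spans 226 kb, Chd7 177 kb, Chd6 162 kb, Atrx 132 kb and Chd2 115 kb, whereas Chd1 spans 67.6 kb, Chd8 59.6 kb, Chd1l 49.5 kb, Chd4 34.6 kb and Chd3 26.1 kb. The median gene with a time-course test at 12 h spans 25.4 kb, so all 10 are longer than that. Exons cover 32.3% of Chd3, 27.7% of Chd8 and 23.2% of Chd4, above the median of 17.1%, and between 7.78% (Chd7) and 16.5% (Atrx) of the other 7.

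Over the time course, Chd2 was the earliest of these genes to pass and had the most negative value, and Atrx, Chd1l and Chd6 joined it by 12 h. The values are log2 fold changes that the authors' deposited table holds in a form shrunken toward 0, with the authors' adjusted p and a threshold of 0.05. Per-library values of the time course were not used here, so no SD or n is given.

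At 0 h none of the 10 genes passed (adjusted p of 0.9998 in each case in the authors' deposited table, lowest unadjusted p = 0.118), against 0.376% of 14909 genes. At 3 h none passed either in the authors' deposited table, against 0.577% of 10920 genes in either direction, although 2 of the 10 had an unadjusted p under 0.05. These were Chd4 at 0.49 ± 0.31 (log2 ± SE, adjusted p = 0.154) and Chd2 at −0.22 ± 0.25 (adjusted p = 0.299) per the authors' deposited table. The other 8 lay between −0.06 and 0.04 there.

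At 6 h Chd2, which is thought to aid placement of H3.3 at active genes, was the only member called, at −0.998 ± 0.274 (log2 ± SE, adjusted p = 0.00382) per the authors' deposited table. That table called 1.39% of 12534 genes negative and 1.71% positive at 6 h. Atrx stood at −0.48 ± 0.26 (adjusted p = 0.102) and Chd4 at 0.55 ± 0.42 (adjusted p = 0.14) per the authors' deposited table, neither past the threshold. Another 5 members were between −0.24 (Chd1l) and −0.02 (Chd1), and Chd8 (0.10) and Chd3 (0.04) were on the positive side, none of them called in the authors' deposited table.

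By 12 h, 4 of the 10 genes were negative and 0 positive, where the authors' deposited table called 12.1% of 15917 genes negative and 8.58% positive. Their median was −0.36 on the log2 scale, beside 0.01 over all genes with an adjusted p, and 8 of the 10 had a negative sign against 48.7% of all genes in the authors' deposited table. Chd2 reached −1.70 ± 0.38 (adjusted p = 1.73e-05) per the authors' deposited table. The H3.3 loader Atrx was at −1.22 ± 0.31 (adjusted p = 0.000185) and the poly(ADP-ribose)-driven remodeller Chd1l at −0.98 ± 0.26 (adjusted p = 0.000501) per the authors' deposited table. Chd6, of the Chd7 subfamily, was at −0.72 ± 0.33 (adjusted p = 0.0363) per the authors' deposited table. It was the one member call at 12 h that a threshold of 0.01 would drop.

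The remaining 6 did not pass at 12 h. Chd9 came nearest at −0.44 ± 0.23 (adjusted p = 0.0979) per the authors' deposited table. Chd1, the close relative of Chd2, was at −0.27 ± 0.21 (adjusted p = 0.315) there, and Chd8 and Chd7 were at −0.12 and −0.05 in the authors' deposited table. The NuRD ATPases had the only positive signs, Chd3 at 0.36 ± 0.33 (adjusted p = 0.327) and Chd4 at 0.32 ± 0.41 (adjusted p = 0.431) per the authors' deposited table. Chd5, the remaining CHD gene, which is known from neurons and testis, was at −0.40 ± 0.27 (adjusted p = 0.209) per the authors' deposited table.

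**Figure D2:**
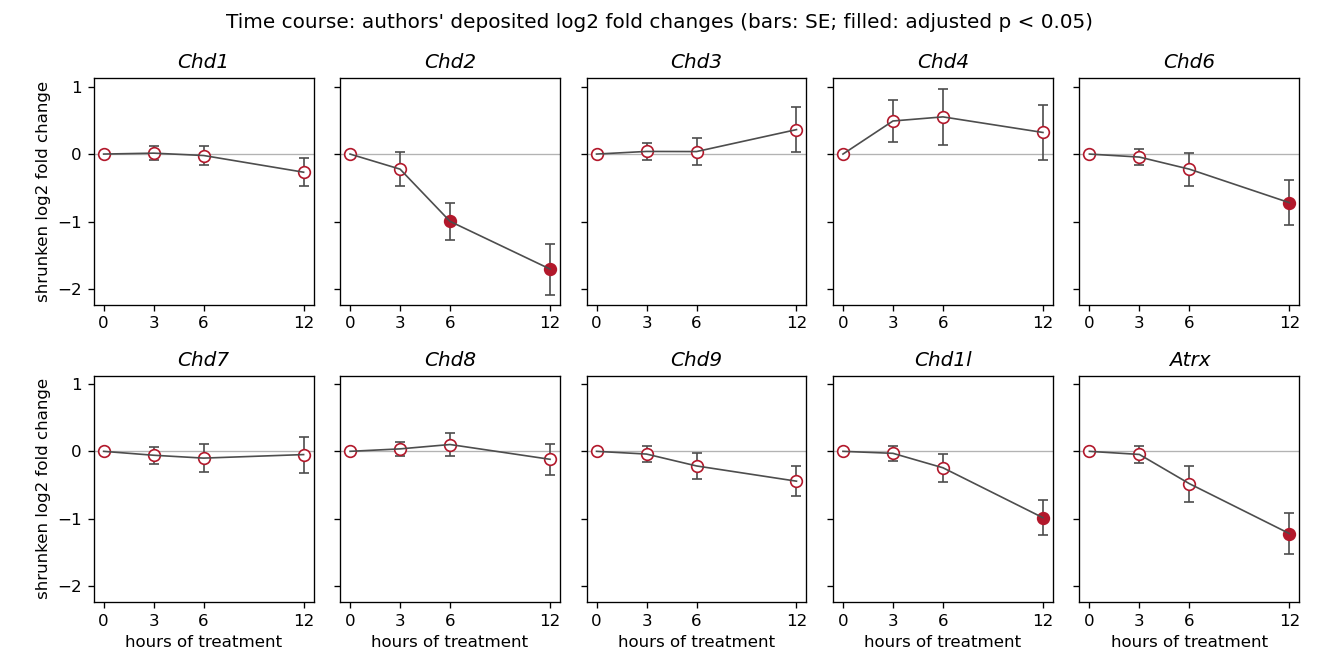
Shrunken log2 fold changes (y axis, bars SE) from the authors' deposited table at 0, 3, 6 and 12 h (x axis, hours) for each gene, filled where the adjusted p was under 0.05. Chd2 is filled at 6 h (−0.998) and 12 h (−1.70), and Atrx, Chd1l and Chd6 at 12 h (−1.22, −0.98 and −0.72).

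Over all genes, negative calls at 12 h were more frequent among the longer ones, and the positive share by length was not worked out. Of 2365 genes of 100 kb or longer with a length in the annotation, 20.1% were negative in the authors' deposited table, and of 13146 shorter genes 10.8%. Of the 5 members of 100 kb or longer, Chd2, Atrx and Chd6 were negative and Chd7 and Chd9 were not called, and of the 5 shorter ones Chd1l alone was negative in the authors' deposited table. The part of length in these values was not tested.

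After washout the pattern was different. The NuRD ATPase gene Chd4, the elongation-linked Chd1 and Chd8 were higher in IAA than in EtOH libraries, and none of the 10 was lower. The edgeR quasi-likelihood test called 8.83% of 15110 genes higher and 7.6% lower at a false discovery rate (FDR, Benjamini-Hochberg) of 0.05. The median log2 fold change was 0.29 over the 10 and −0.05 over all tested genes. In these 3 genes the EtOH and IAA libraries did not overlap, which held for 23.1% of all genes tested.

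In Chd4 the EtOH libraries held 86.2 and 98.0 CPM (line 10E) and 81.6 and 89.0 CPM (line 11D). The IAA libraries held 287 and 205 CPM in line 10E and 159 and 147 CPM in line 11D. Every IAA library was above every EtOH library, and line 10E had the higher pair. The means of 88.7 ± 6.94 and 199 ± 63.6 CPM (SD, n = 4 each) differed 2.25-fold, a log2 fold change of 1.17 ± 0.21 (SE, edgeR FDR = 0.00373).

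Chd1, whose chromodomains bind trimethylated lysine 4 of histone H3 and which helps keep stem cell chromatin open, stood at 75.8 and 68.8 CPM in 10E EtOH and 94.8 and 85.6 CPM in 11D EtOH. With IAA it stood at 140 and 172 CPM in line 10E and 136 and 110 CPM in line 11D. The groups were apart in both lines. Means were 81.3 ± 11.4 and 140 ± 25.3 CPM (SD, n = 4 each), and the log2 fold change was 0.78 ± 0.18 (SE, edgeR FDR = 0.0123).

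Chd8 gave 102 and 85.1 CPM in 10E EtOH, 111 and 93.9 CPM in 11D EtOH, 192 and 185 CPM in 10E IAA, and 137 and 129 CPM in 11D IAA. Here too all IAA libraries were above all EtOH libraries. Means were 98.0 ± 11.1 and 161 ± 32.4 CPM (SD, n = 4 each), and the log2 fold change was 0.71 ± 0.18 (SE, edgeR FDR = 0.0189). This call was lost without the second 10E EtOH library (edgeR FDR = 0.0576) and without the first 10E IAA library (edgeR FDR = 0.0666), and with line and library number as a replicate block (edgeR FDR = 0.064). Chd8 ends 735 bp from the start of Supt16, the tagged gene, on the same strand. Supt16 itself was at 0.53 ± 0.18 on the log2 scale (SE, edgeR FDR = 0.0658), not called. Its IAA libraries (91.5 to 132 CPM) were all above its EtOH libraries (56.9 to 90.5 CPM), which held for 23.1% of all genes tested. It was at 0.92 in line 10E alone (edgeR FDR = 0.0141) and 0.19 in line 11D alone (edgeR FDR = 0.721). The targeted gene's RNA was thus not lower in IAA libraries, and the degron acts on the protein. Whether Chd8 and Supt16 moved together was not tested.

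**Figure D3:**
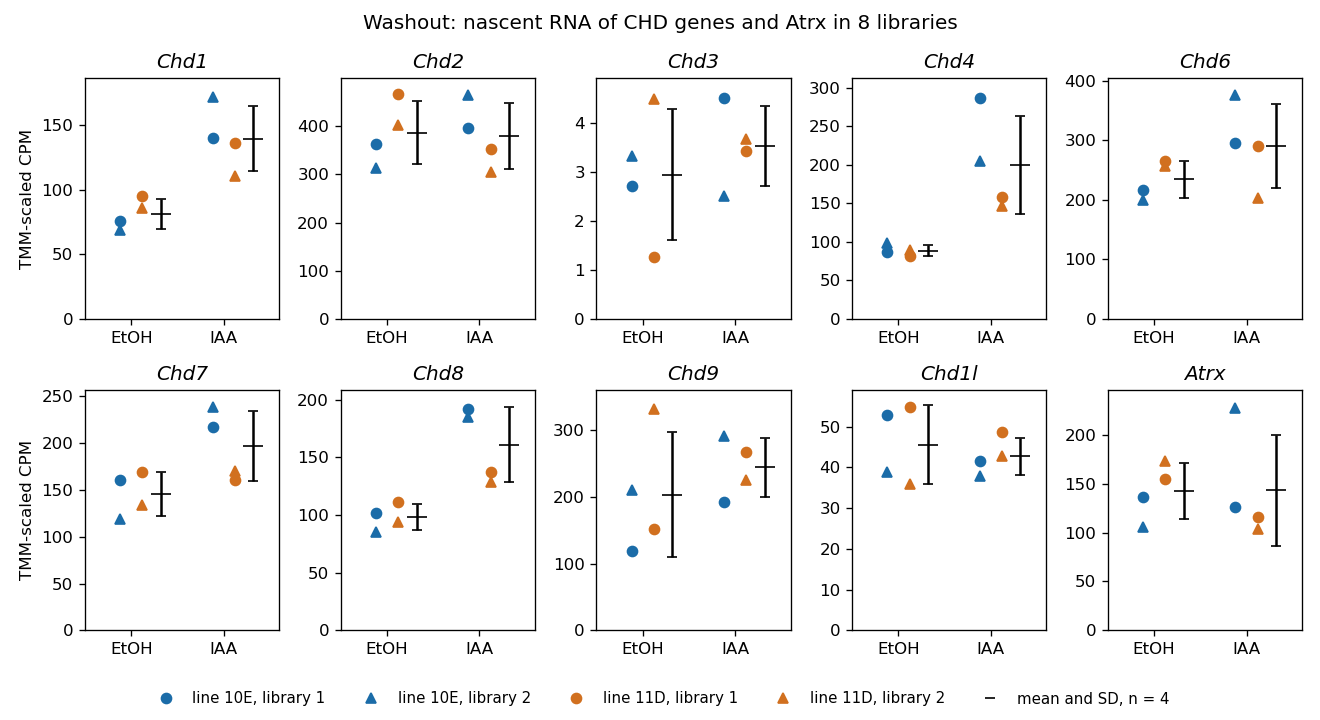
TMM-scaled CPM (y axis, from 0) of each gene in the 8 washout libraries, coloured by line and shaped by library number, with mean and SD (n = 4). In Chd1, Chd4 and Chd8 every IAA library lies above every EtOH library, and in the other 7 genes the treatments overlap.

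The other 7 genes overlapped between treatments and did not pass. Chd7 came nearest, with EtOH libraries from 119 to 169 CPM, IAA libraries from 161 to 239 CPM, and a log2 fold change of 0.43 ± 0.19 (SE, edgeR FDR = 0.129, unadjusted p = 0.0372). Chd6 ran from 200 to 265 CPM in EtOH and from 203 to 376 CPM in IAA libraries, with a log2 fold change of 0.31 ± 0.20 (SE, edgeR FDR = 0.3). Chd3 held 1.26 to 4.48 CPM in EtOH and 2.50 to 4.51 CPM in IAA libraries, from 19 to 95 raw counts per library. At that depth its log2 fold change was 0.24 ± 0.38 (SE, edgeR FDR = 0.695), the widest error of the 10.

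Chd9, a large gene of the Chd7 subfamily, varied with library number in EtOH. It stood at 119 and 152 CPM in the EtOH libraries numbered 1 and at 210 and 333 CPM in those numbered 2. The IAA libraries ran from 193 to 291 CPM. The log2 fold change was 0.26 ± 0.28 (SE, edgeR FDR = 0.549), and 0.60 without the second 11D EtOH library (edgeR FDR = 0.0889). Chd1l went the other way in EtOH, with 52.9 and 54.9 CPM in libraries numbered 1 and 38.8 and 35.9 CPM in those numbered 2, and the part of library number in either gene was not tested.

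The genes called negative at 12 h were not called after washout. Chd2 held 362 and 312 CPM in 10E EtOH, 467 and 402 CPM in 11D EtOH, 395 and 465 CPM in 10E IAA, and 353 and 304 CPM in 11D IAA. Its treatment means of 386 ± 65.5 and 379 ± 68.1 CPM (SD, n = 4 each) gave a log2 fold change of −0.03 ± 0.19 (SE, edgeR FDR = 0.941). Within the lines, IAA libraries were above EtOH in 10E and below in 11D, but neither line passed alone (edgeR FDR = 0.44 and 0.381). Chd2 overlaps same-strand noncoding genes in the annotation, among them 1810026B05Rik (Chaserr), whose RNA is known to restrain Chd2. Reads in shared stretches cannot be assigned to either gene with certainty, and 1810026B05Rik was at −0.59 ± 0.24 on the log2 scale (SE, edgeR FDR = 0.112).

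Atrx, the X-linked gene of the α-thalassaemia and intellectual disability syndrome, held 137 and 106 CPM in 10E EtOH and 155 and 173 CPM in 11D EtOH. In IAA it held 127 and 227 CPM in line 10E and 116 and 104 CPM in line 11D. The second 10E IAA library was the highest of all 8. The log2 fold change was 0.01 ± 0.25 (SE, edgeR FDR = 0.989), and −0.30 without that library (edgeR FDR = 0.344). Its sign also turned under upper-quartile scaling (−0.06), so no direction is given.

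Chd1l means were 45.6 ± 9.68 CPM in EtOH and 42.8 ± 4.57 CPM in IAA libraries (SD, n = 4 each), a log2 fold change of −0.09 ± 0.18 (SE, edgeR FDR = 0.765). Outside the 10, the neuronal NuRD gene Chd5 was lower, at −1.32 ± 0.28 on the log2 scale (SE, edgeR FDR = 0.00802). It held 14.9 ± 4.05 CPM in EtOH and 5.93 ± 1.86 CPM in IAA libraries (SD, n = 4 each). Its depth was low, with 23 to 69 raw counts per IAA library, and it did not pass in line 11D alone (−1.25, edgeR FDR = 0.0873).

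**Figure D4:**
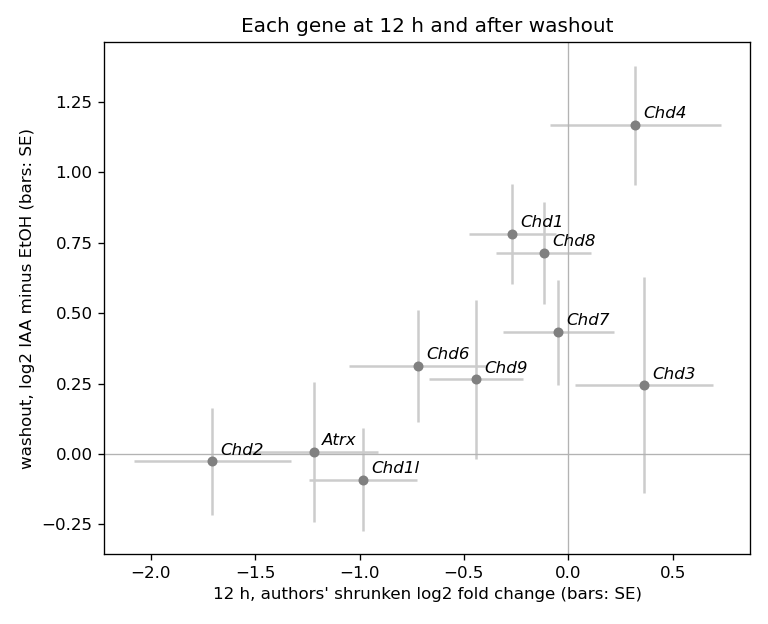
Each gene by its 12 h shrunken log2 fold change in the authors' deposited table (x axis) and its washout log2 fold change, IAA minus EtOH (y axis), with SE bars. Chd2, Atrx and Chd1l lie far to the left (−1.70, −1.22 and −0.98) and near 0 on the y axis, and Chd4 (1.17), Chd1 (0.78) and Chd8 (0.71) lie highest.

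Signed fold changes were higher in line 10E than in 11D for 8 of the 10 genes, but no difference between the lines passed. The share of such signs over all genes was not worked out, so the count is not read as a trait of these genes. Tested alone, line 10E gave Chd4 1.45 ± 0.31 (edgeR FDR = 0.000347), Chd1 1.14 ± 0.29 (edgeR FDR = 0.0027) and Chd8 1.04 ± 0.30 (edgeR FDR = 0.00769), as log2 fold changes ± SE. In line 11D alone none passed, with Chd4 at 0.84 ± 0.23 (edgeR FDR = 0.0803), Chd1 at 0.45 ± 0.24 (edgeR FDR = 0.345) and Chd8 at 0.37 ± 0.23 (edgeR FDR = 0.429). Over all genes, line 10E alone called 3366 (1758 higher) and line 11D alone 443 (279 higher), so fewer calls in 11D were not particular to these genes. The difference itself was tested as the line-by-treatment term, and 0.0% of 15110 genes passed, none of the 10 among them. Unadjusted, 2250 genes had p under 0.05 for that term in edgeR, 3 of the 10 among them, and DESeq2 called 135 genes, again none of the 10. Of these differences, 11D minus 10E, that of Atrx was the largest, at −1.13 ± 0.40 (edgeR FDR = 0.275), ahead of Chd6 at −0.77 ± 0.34 (edgeR FDR = 0.33) and Chd2 at −0.76 ± 0.32 (edgeR FDR = 0.313).

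**Figure D5:**
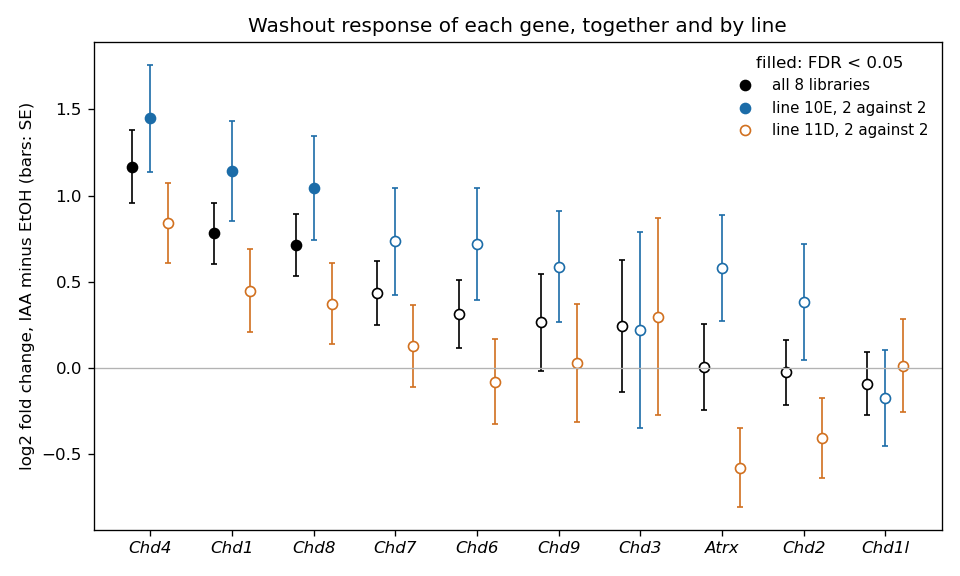
Washout log2 fold changes, IAA minus EtOH (y axis, bars SE), for each gene from all 8 libraries and from each line alone, filled where the edgeR FDR was under 0.05. In line 10E Chd4, Chd1 and Chd8 are filled (1.45, 1.14 and 1.04), and in line 11D no gene is.

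Partner genes of these remodellers were read from lists chosen by function. Of 12 NuRD subunit genes, 1 was higher and 0 lower after washout (median 0.09, edgeR), beside 8.83% and 7.6% of all genes tested (median −0.05). It was Mta2, a scaffold subunit, at 0.95 ± 0.19 (log2 ± SE, edgeR FDR = 0.00719), with 28.1 ± 3.75 CPM in EtOH and 54.5 ± 13.3 CPM in IAA libraries (SD, n = 4 each). At 12 h 4 of the 12 were negative and 0 positive in the authors' deposited table (median −0.20), beside 12.1% negative and 8.58% positive of all genes (median 0.01). They were the scaffold genes Mta1 (−0.88, adjusted p = 0.000319) and Mta3 (−1.09, adjusted p = 0.000828) and the zinc finger subunit genes Gatad2b (−0.92, adjusted p = 0.00302) and Gatad2a (−0.85, adjusted p = 0.00925) per the authors' deposited table.

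Of 10 genes listed for Atrx, H3.3 and heterochromatin, not all of them direct partners of Atrx, 4 were higher and 0 lower after washout (median 0.49, edgeR). Of all genes tested, 8.83% were higher and 7.6% lower (median −0.05). Setdb1, a methyltransferase for lysine 9 of histone H3, rose by 0.79 ± 0.15 (log2 ± SE, edgeR FDR = 0.00605), and the H3.3 chaperone gene Hira by 0.98 ± 0.19 (edgeR FDR = 0.00632). Trim28, the corepressor that recruits Setdb1, rose by 1.02 ± 0.20 (edgeR FDR = 0.00678), and H3f3a, which encodes H3.3, by 0.58 ± 0.14 (edgeR FDR = 0.015). The chaperone Daxx did not pass (0.49 ± 0.18, edgeR FDR = 0.0759). At 12 h the H3.3 genes H3f3b (1.43, adjusted p = 0.0108) and H3f3a (0.55, adjusted p = 0.0396) had positive calls in the authors' deposited table, while Atrx was negative. The HP1γ gene Cbx3 was negative at that time (−1.17, adjusted p = 0.000295) per the authors' deposited table. H3f3a, H3f3b and Cbx3 have processed copies elsewhere in the genome, so their values are uncertain. Cbx3 was also the one gene of this list called at 6 h (−0.65, adjusted p = 0.00548) per the authors' deposited table.

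The ChAHP complex joins Chd4 to Adnp and HP1 proteins. Of its 3 tested partner genes (Adnp2, Cbx1 and Cbx3) none passed after washout, beside 8.83% higher and 7.6% lower of all genes tested. At 12 h Adnp2 (−1.10, adjusted p = 3.98e-05) and Cbx3 were negative per the authors' deposited table, beside 12.1% of all genes. Cbx3 also stands in the Atrx list, where its value was called uncertain. Adnp is listed at 0 in all 8 washout libraries, where the annotation has it inside a same-strand gene, Gm20716. Of 7 partner genes of Chd7 and Chd8, 2 were higher after washout (median 0.47, beside 8.83% of all genes tested): the methyltransferase gene Kmt2a at 0.75 ± 0.17 (log2 ± SE, edgeR FDR = 0.0126) and its core subunit gene Rbbp5 at 0.58 ± 0.19 (edgeR FDR = 0.0491). At 12 h 3 of these 7 were negative in the authors' deposited table, beside 12.1% of all genes. They were the insulator gene Ctcf (−1.05, adjusted p = 1.18e-05), Ash2l (−0.63, adjusted p = 0.00598) and Wdr5 (−0.54, adjusted p = 0.047). Of 4 poly(ADP-ribose) genes upstream of Chd1l none passed in either experiment. None of the 5 lists had a call at 0 h or 3 h.

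Neighbouring genes were read to see whether members moved with their surroundings. Of 20 nearest tested neighbours, 1 was higher after washout and 0 lower, beside 8.83% and 7.6% of all genes tested. It was Rbl2, downstream of Chd9, at 0.77 ± 0.21 (log2 ± SE, edgeR FDR = 0.0255). Nop2, which starts 1318 bp past Chd4 on the same strand, was at 0.06 ± 0.16 (edgeR FDR = 0.84). In the 6 h comparison Trappc1, next to Chd3, was positive (0.88, adjusted p = 0.0394) per the authors' deposited table. At 12 h 3 of 18 neighbours with a test were negative in the authors' deposited table, near the 12.1% of all genes. They were Pbdc1 (−0.84, adjusted p = 0.00204) and Magt1 (−0.65, adjusted p = 0.0229), on either side of Atrx, and Asph (−0.94, adjusted p = 0.00158) per the authors' deposited table. Magt1 lies 38681 bp from Atrx, but Pbdc1 lies 680525 bp from Atrx and Asph 580410 bp from Chd7. Transcripts upstream of the promoters (PROMPTs) were matched by symbol for 8 of the 10 genes in the authors' deposited table. Their mean normalised counts were at most 3.77, in Atrx at 0 h, and the lowest unadjusted p over the 4 times was 0.0939, so no change was detectable at this depth.

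The washout libraries held from 6547992 to 16554314 counts, and an 18S ribosomal RNA locus (CT010467.1) took 5.73% to 9.27% of them in EtOH and 20.8% to 29.3% in IAA libraries. Leaving out ribosomal RNA and mitochondrial genes kept all 3 calls, with Chd4 at 1.17. That setting only takes these genes out of the scaling and the test, so it does not address the amount of labelled RNA per cell. The part of the 18S share in the results was not tested. Of 8 embryonic stem cell markers 7 passed the filter, with summed levels of 1960 to 3420 CPM in EtOH and 2220 to 2470 CPM in IAA libraries, and Sox2 is listed at 0 inside the same-strand gene Sox2ot. Markers of primitive endoderm (8.20 to 10.7 and 8.83 to 13.9 CPM), trophoblast (16.0 to 23.0 and 21.7 to 23.5 CPM) and fibroblast feeders (15.3 to 20.4 and 12.0 to 18.6 CPM) were low in EtOH and IAA libraries, and 3 of 5, 4 of 5 and 1 of 5 of them passed the filter. Their part in the results was not tested. In bulk libraries a changed share of cells and a changed level per cell cannot be told apart.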

How the data were processed

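TT-seq values were used as the submitters made them. The washout table holds raw read-pair counts for each gene. Per the file headers, featureCounts 2.0.1 counted them on the reverse strand over entire genes, introns included. STAR, deepTools and build mm10 are named in the submitters' processing notes. Genes overlapping on the same strand are uncertain. The time-course and washout comparison tables give log2 fold changes, p-values, adjusted p-values and a mean normalised count (a signal over libraries), and the washout one a test statistic (score), not printed, all made by the authors and deposited with DESeq2-style column names. The time-course log2 values are shrunken, as the values themselves show. The aligner's version is not given in the sources used here.

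Washout counts were tested with edgeR 4.0.16 (robust quasi-likelihood, two-sided) in R 4.3.3, with TMM scaling, filterByExpr and Benjamini-Hochberg adjustment over all 15110 genes, 4 IAA against 4 EtOH libraries without a block. SE values are those implied by the F statistic. The fit was also run on simulated counts drawn independently for each library with dispersions from these data, which does not address libraries sharing a culture. Alternatives were DESeq2 1.42.0, other scalings, no filter, blocks, each line alone and each library left out. Line pairs the libraries because the same cell lines received both treatments. Count columns name the lines but the labels do not tie them to Clone1 and Clone2. No label ties replicates to separate cultures, and p-values then reflect only how these libraries vary, which may be technical. Coordinates are mm10, 1-based, and lengths and exons are from GENCODE M21.

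The 10 genes, the partner and marker lists and the tests were chosen with earlier results of these data known. All 10 genes are named throughout, Chd5 beside them, and of each partner list up to 6 genes that passed, in order of adjusted p. A result from the partner lists is not reported here.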

Additional observations from a re-analysis of the deposited data

Results flagged for a closer look

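Chd2 had opposite signs in the lines of the washout, but neither line passed alone. Its log2 fold change ± SE was 0.38 ± 0.34 in line 10E (edgeR FDR = 0.44) and −0.41 ± 0.23 in line 11D (edgeR FDR = 0.381). Both 10E IAA libraries (395 and 465 CPM) were above both 10E EtOH libraries (362 and 312 CPM), and both 11D IAA libraries (353 and 304 CPM) were below both 11D EtOH libraries (467 and 402 CPM). How often libraries separate in this way over all genes was not worked out. The line-by-treatment difference was −0.76 on the log2 scale (edgeR FDR = 0.313), so it did not pass. No library of the 10 genes stood apart from its treatment group by Dixon's test, which has little power with 4 libraries per group. In Atrx the second 10E IAA library was at 227.4 CPM and the other IAA libraries were at 104.2 to 126.5 CPM. Without that library the Atrx log2 fold change was −0.30 (edgeR FDR = 0.344).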

How the results depend on the processing

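Under 19 alternatives the washout call of Chd4 was lost in 1, that of Chd1 in 2 and that of Chd8 in 5. Line 11D alone ended all 3. An FDR of 0.01 kept Chd4 and ended Chd1 and Chd8, leaving 1 member and 778 genes called in place of 3 and 2483. With line as a replicate block 2302 genes and the same 3 members were called, and with line and library number as a replicate block 1467 genes and 2 members, and line pairs the libraries by design while libraries of the same line and number did not deviate together (correlations −0.50 to 0.34). Line 10E alone called 3366 genes and 3 members, and line 11D alone 443 genes and 0 members. Leaving out 1 library gave 1415 to 2641 genes, 2 or 3 members higher, and log2 fold changes of 0.95 to 1.29 for Chd4, 0.67 to 0.88 for Chd1 and 0.62 to 0.81 for Chd8. No alternative called a member lower. DESeq2 called 3569 genes and no filter 3656, and upper-quartile scaling moved the median of all genes to −0.11.

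Signs of uncalled members turned as follows. Atrx was at −0.0577 with upper-quartile scaling, −0.0600 without a filter, −0.0164 with line and −0.0515 with line and number as a replicate block, −0.58 in line 11D alone and −0.00754 in the authors' deposited table. Chd2 was at 0.00110 with RLE factors and 0.38 in line 10E alone, Chd6 at −0.0804 and Chd1l at 0.0137 in line 11D alone. Leaving out 1 library gave −0.30 to 0.14 for Atrx, −0.13 to 0.0787 for Chd2, −0.00875 to 0.52 for Chd3 and −0.19 to 0.00983 for Chd1l. The line-by-treatment term gave 0 genes by edgeR, 135 by DESeq2, 421 without a filter and 0 to 5 with 1 library left out. At an adjusted p under 0.01 the authors' deposited table held 32 genes at 0 h, 2 at 3 h, 102 at 6 h and 1918 at 12 h, in place of 56, 63, 388 and 3298, and adjustment over every gene with a p left 2 at 3 h. Chd6 (−0.72) was then not called at 12 h at 0.01. Apart from fewer libraries, genes or a stricter threshold, the cause of these shifts was not tested. Chd3 is limited by depth.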
